A study of Rattus norvegicus with 10 samples.

Results

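The genes described here encode the ion pumps that move protons, sodium and potassium across kidney membranes. They were taken as every gene of the expression table whose symbol begins with Atp6v or Atp6ap (vacuolar H+-ATPase, V-ATPase), Atp4 or Atp12a (H/K-ATPase), Atp1a or Atp1b (Na/K-ATPase) or Fxyd (small regulators of the Na/K-ATPase). The rule gave 43 genes of the 32545 in the table, of which 21459 were above 0 in at least 1 library. The rule used symbols only and no measured value. Left kidney cortex was sampled from male rats, 11 to 12 weeks old, of the Dahl Salt Sensitive background. In all, 5 libraries carried the genotype SS_WT, the wild type, and 5 the genotype Kcnj16_m1, which the series title calls a knockout of Kcnj16, a potassium channel subunit of the basolateral tubule membrane. Both groups shared strain, sex, tissue and age, and no drug or diet treatment is labelled. The labels do not say whether a library is 1 animal, and the p-values therefore reflect only how much the libraries vary. Replicate numbers below follow deposit order and only name libraries.

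The V-ATPase is a rotary pump. Its cytosolic V1 sector splits ATP and its membrane-embedded V0 sector carries protons. It acidifies lysosomes and endosomes in every cell, and in the intercalated cells of the collecting duct, plasma membrane pumps built with cell-type-restricted isoforms secrete acid or bicarbonate. The Na/K-ATPase, an alpha and a beta subunit with an FXYD protein, sits on the basolateral side of the tubule and drives most sodium reabsorption, while H/K-ATPases exchange protons for potassium.

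The promoters of 4 restricted V-ATPase isoforms that moved between the groups in both directions are shown because the results turn on these genes. Each runs 5′ to 3′ from 250 bases before to 50 bases after the RefSeq gene start, in the GRCr8 build. Capitals mark the only match found to 1 of the motifs searched.
Atp6v1b1, chr4:117781194-117781493, plus strand: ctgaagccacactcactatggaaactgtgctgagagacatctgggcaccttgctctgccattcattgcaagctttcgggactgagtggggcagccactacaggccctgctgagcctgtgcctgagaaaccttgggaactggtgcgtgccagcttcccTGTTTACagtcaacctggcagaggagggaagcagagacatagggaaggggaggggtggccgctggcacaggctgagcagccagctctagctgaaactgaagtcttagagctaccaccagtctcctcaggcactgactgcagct
Atp6v1c2, chr6:45848698-45848997, minus strand: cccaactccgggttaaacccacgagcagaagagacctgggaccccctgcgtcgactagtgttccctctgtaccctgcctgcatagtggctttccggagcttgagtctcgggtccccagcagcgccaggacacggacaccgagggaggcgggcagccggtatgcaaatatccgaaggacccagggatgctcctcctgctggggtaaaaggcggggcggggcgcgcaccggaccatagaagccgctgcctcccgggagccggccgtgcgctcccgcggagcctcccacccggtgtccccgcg
Atp6v0a4, chr4:67809043-67809342, minus strand: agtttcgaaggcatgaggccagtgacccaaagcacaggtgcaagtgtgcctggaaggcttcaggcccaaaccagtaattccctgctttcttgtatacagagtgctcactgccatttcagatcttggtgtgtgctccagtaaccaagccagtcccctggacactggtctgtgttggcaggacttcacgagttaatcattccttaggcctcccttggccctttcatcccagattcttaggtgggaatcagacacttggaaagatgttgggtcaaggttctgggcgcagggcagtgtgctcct
Atp6v1g3, chr13:52362082-52362381, plus strand: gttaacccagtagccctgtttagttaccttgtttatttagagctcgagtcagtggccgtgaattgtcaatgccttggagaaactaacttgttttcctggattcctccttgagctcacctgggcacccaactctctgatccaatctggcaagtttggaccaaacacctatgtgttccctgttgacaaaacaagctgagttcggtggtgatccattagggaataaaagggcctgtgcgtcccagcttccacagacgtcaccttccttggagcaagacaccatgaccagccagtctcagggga
Promoters were found for 31 of the 43 genes, with more than 1 for Atp12a and Fxyd5. Both strands were searched for TGTTTAC and TATTTAC, core letters of forkhead sites (the intercalated cell factor Foxi1 is a forkhead protein), and for CACGTG, the E-box core of the lysosomal gene factor TFEB, and none of the motifs overlaps another. Members are counted per gene and the background per promoter. TGTTTAC was found for 1 of the 31 genes, Atp6v1b1, against 3.78% of all 33469 rat promoters in the table. In Atp6v1b1 it starts 93 bases before the gene start on the plus strand. TATTTAC was found for 1 of the 31 genes, Atp6v0e1, against 3.51%. CACGTG was found for 2 of the 31 genes, Atp6v0d1 and Atp6v0e1, against 6.42%. These are letter matches in a short window and not binding sites.

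Expression is given as FPKM, fragments scaled to gene length and to library size, so that levels of different genes can be set side by side. Reads assigned to genes came to 16361516 to 23385968 per library. Kcnj16 itself was at 346.6 ± 21.6 FPKM (mean ± SD, wild type, n = 5) against 326.4 ± 13.3 FPKM in Kcnj16_m1 (limma, Benjamini-Hochberg adjusted p = 0.278), so its transcript level does not separate the genotypes and cannot check the labels. Summed proximal tubule markers were 5847 to 8055 FPKM among wild-type libraries and 8039 to 9156 FPKM among Kcnj16_m1 libraries. Of 13 tested, 6 rose and 0 fell, or 46.2%, against 28.5% of all genes tested. Summed neuron and glia markers lay between 1.22 and 2.40 FPKM. Summed injury markers such as Havcr1 and Spp1 spanned 593 to 3097 FPKM among wild-type libraries, highest in replicate 3, and 242 to 314 FPKM among Kcnj16_m1 libraries. The tissue is bulk, so fewer cells of a type and less RNA per cell cannot be told apart. The protocols describe a directional and a non-directional library and do not say which applies here, which leaves any gene with an opposite-strand overlap uncertain.

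The pump genes spanned a wide range of levels. Fxyd2, the gamma subunit of the renal Na/K-ATPase, led with a mean of 4266 ± 381 FPKM in wild type and 4533 ± 171 FPKM in Kcnj16_m1 (SD, n = 5 each), on a gene model of only 258 bases. Atp1b1, the main beta subunit of the pump, had a mean of 1082 ± 114 FPKM in wild type. Atp6v0c, the proteolipid that forms the V0 rotor ring, was the highest V-ATPase gene. It was at 491 ± 53.9 FPKM (mean ± SD, wild type) against 539.5 ± 25.7 FPKM in Kcnj16_m1. The test took genes that reached 0.5 FPKM in 5 or more libraries. Of the 43, 31 passed, and each of those had at least 1.82 FPKM and 49 reads in every library of both groups, so no member passed only through the group where it was high. The other 12 never had more than 97 reads in a library.

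**Figure D1:**
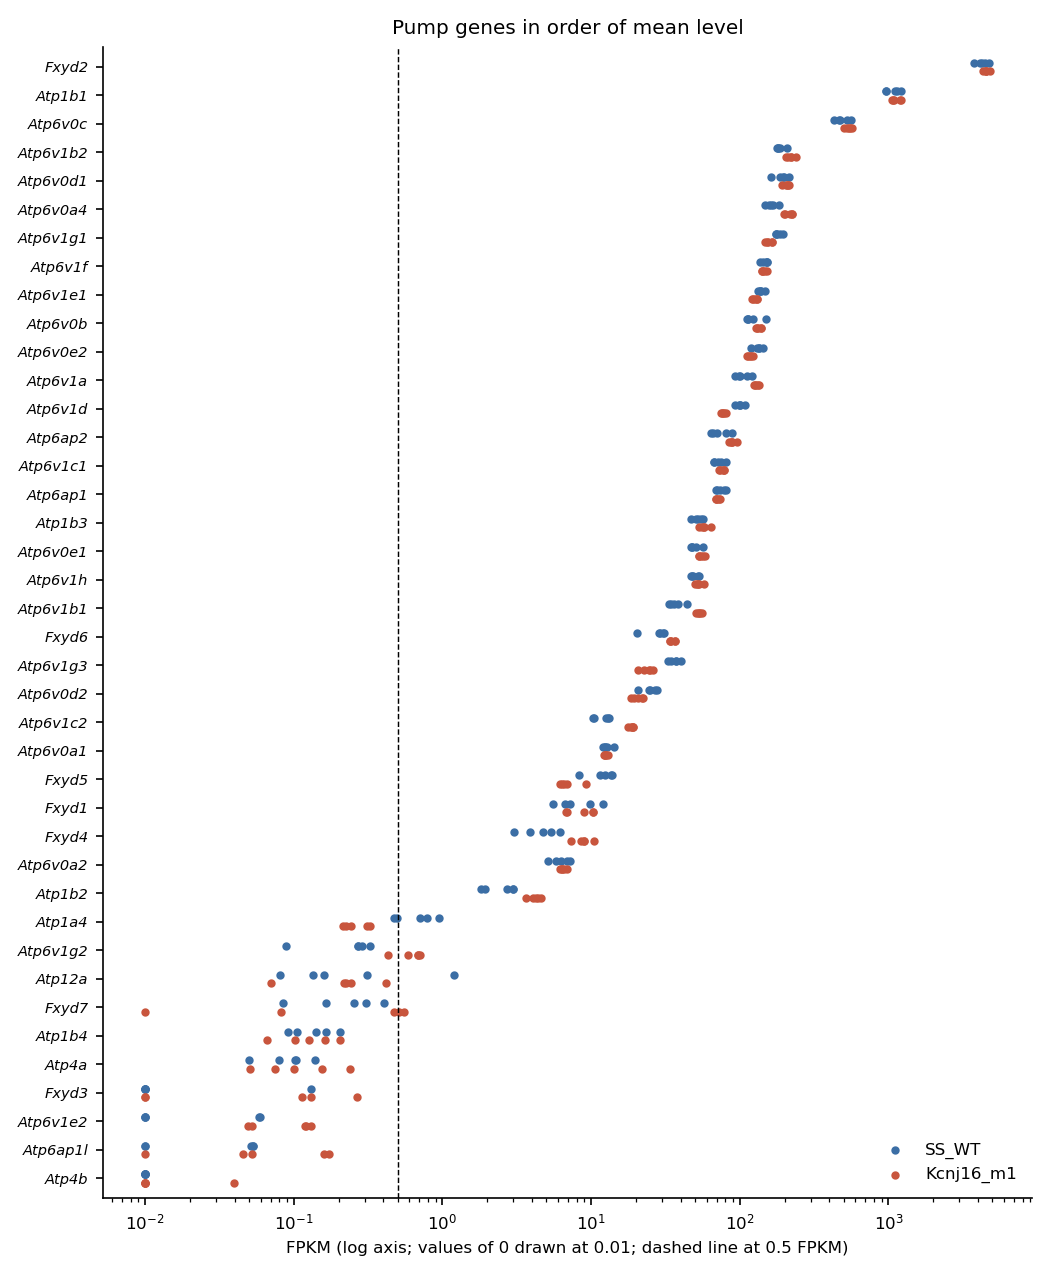
FPKM of 40 pump genes (log axis, values of 0 drawn at 0.01) in order of mean level, 1 point per library, 5 SS_WT and 5 Kcnj16_m1. Fxyd2, Atp1b1 and Atp6v0c are among the highest. Tested genes lie at 1.82 FPKM and above. Genes below the filter reach up to 1.20 FPKM, with points on both sides of the dashed line at 0.5 FPKM.

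Genotypes were compared with limma on log2(FPKM + 0.5), which understates changes of low genes, and a gene was called at a Benjamini-Hochberg adjusted p under 0.05 over all 13971 genes tested. Among the 31 pump genes, 10 rose in Kcnj16_m1, 7 fell and 14 did not pass. Calls were common in the whole data set, where 28.5% of genes tested were called, 14.6% higher and 14% lower. For the pump genes the share was 54.8%. The groups did not overlap in 12 of the 31, or 38.7%, against 19.2% of all genes tested. Of these, 8 were higher and 4 lower, against 9.88% and 9.34% of all genes. The median log2 fold change of the 31 was 0.09, and that of all genes tested was 0.0079. By class, V1 had 4 higher and 4 lower of 11 tested, V0 had 1 higher and 2 lower of 9, and the FXYD genes had 2 higher and 1 lower of 5. The shares called were 72.7%, 33.3% and 60.0%, so that of V0 was near the 28.5% of all genes tested.

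Gene length moved with the direction of the calls. The 10 higher genes had gene models of 1362 to 4459 bases with a median of 2862, and the 7 lower ones 862 to 1719 bases with a median of 1294. Over all genes tested, models under 1000 bases had a median log2 fold change of -0.07 and those of 4000 bases and over 0.04. With that trend removed, an alternative chosen after seeing the data, 10 pump genes were still higher and 5 lower, and Atp6v1e1 (adjusted p = 0.115) and Atp6v0e2 (adjusted p = 0.176) no longer passed. What else length does to these values was not tested.

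**Figure D2:**
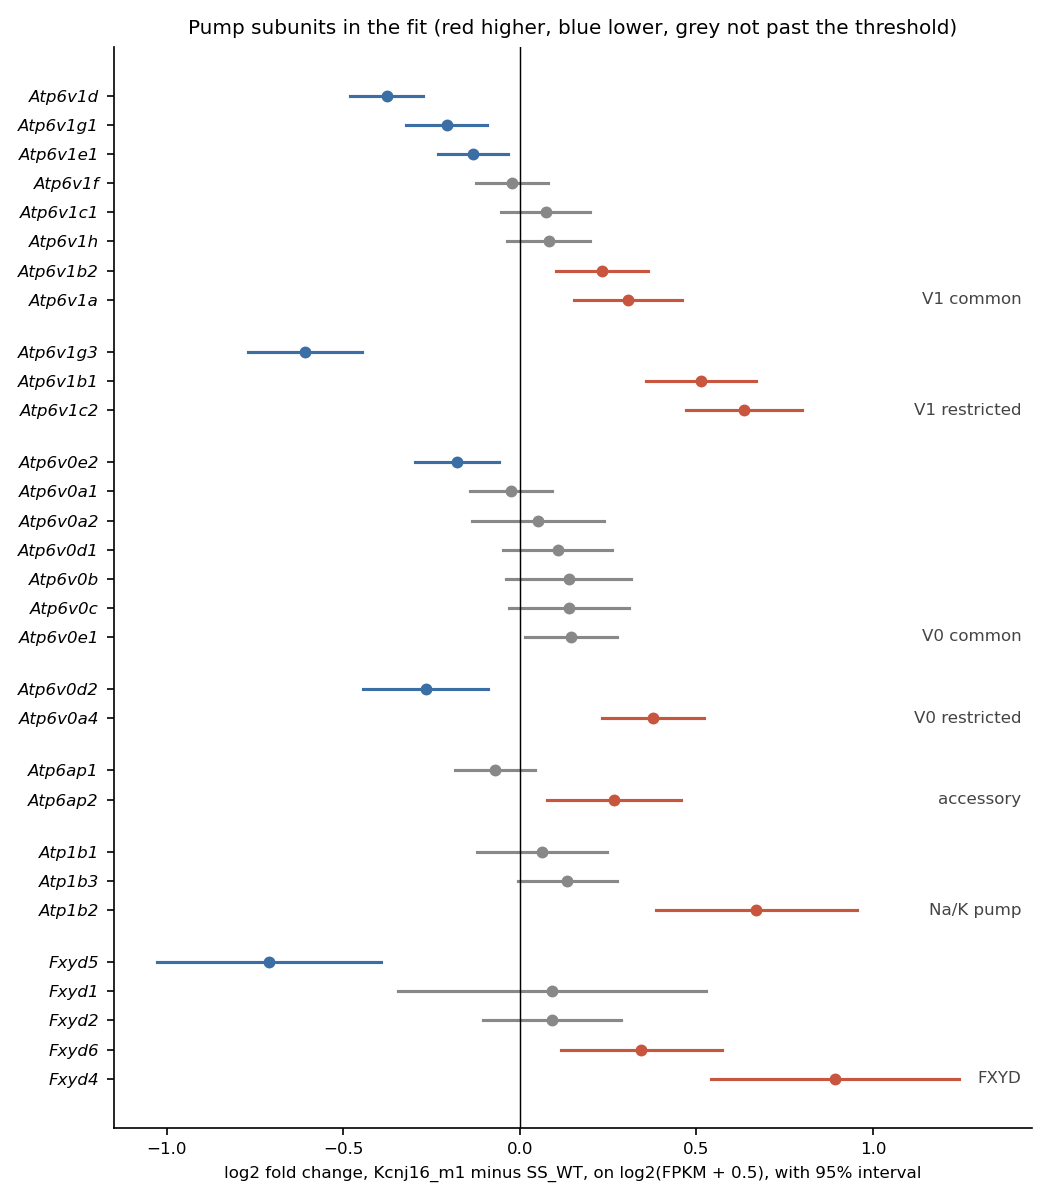
Log2 fold change, Kcnj16_m1 minus SS_WT, of 30 tested pump genes by class, with 95% intervals, red for higher, blue for lower and grey for genes that did not pass. Calls in both directions occur within V1, V0 and the FXYD genes, from Fxyd4 at 0.89 to Fxyd5 at -0.71.

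The catalytic core of V1 rose. Atp6v1a, the A subunit that binds and splits ATP, was at 120.2, 99.8, 92.8, 113 and 98.5 FPKM in the wild-type libraries and at 129, 126, 132, 135 and 124 FPKM in the Kcnj16_m1 libraries. Every Kcnj16_m1 library lay above every wild-type one. The log2 fold change was 0.31 (SE 0.07, limma adjusted p = 0.00884). Atp6v1b2, the B subunit isoform found in most cells, was at 206, 181, 186, 179.9 and 178 FPKM in wild type and 220.2, 204, 221, 239.9 and 211 FPKM in Kcnj16_m1. Only wild-type replicate 1 reached into the Kcnj16_m1 range. Its log2 fold change was 0.23 (SE 0.06, limma adjusted p = 0.0141).

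Among the stalk subunits of V1, D, G1 and E1 fell. Atp6v1d, the D subunit of the central rotor, was at 100.3, 108.8, 101, 99.4 and 93.6 FPKM in wild type and 80.2, 77.6, 76.1, 77.8 and 74.4 FPKM in Kcnj16_m1. The groups were well apart, and the log2 fold change was -0.38 (SE 0.05, limma adjusted p = 0.000508). Atp6v1g1, the widely expressed G subunit of the peripheral stalks, was at 175, 196, 187, 177 and 175 FPKM in wild type and 156, 166, 149, 165 and 153 FPKM in Kcnj16_m1. These did not overlap either, with a log2 fold change of -0.21 (SE 0.05, limma adjusted p = 0.0139). Atp6v1e1, the peripheral stalk partner of G, was at 133, 137, 136, 147 and 139 FPKM in wild type and 122, 126, 131, 131 and 120.5 FPKM in Kcnj16_m1. The ranges came close without overlapping, and the log2 fold change was -0.13 (SE 0.04, limma adjusted p = 0.0464). That call was lost without any 1 library other than wild-type replicate 1, and its adjusted p ran from 0.0316 to 0.115 over all alternatives.

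The rest of the common V1 genes did not pass. They were Atp6v1c1, which joins the stalks to V0, Atp6v1f of the rotor, and Atp6v1h, which holds ATP splitting in check when V1 is detached. Their log2 fold changes ran from -0.02 for Atp6v1f to 0.08 for Atp6v1h, with adjusted p between 0.281 and 0.75.

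Among the V1 isoforms that are enriched in intercalated cells, B1 and C2 rose and G3 fell. Atp6v1b1 (chr4:115416580-115437206, plus strand, in the table's coordinates, for which the sources used here name no build) encodes the B1 subunit, which is mutated in human distal renal tubular acidosis with deafness. It was at 38.4, 36.2, 33.3, 44.1 and 34.5 FPKM in wild type and 52.9, 51.0, 52.3, 55.6 and 54.1 FPKM in Kcnj16_m1. Every Kcnj16_m1 library was above the highest wild-type library, replicate 4. The log2 fold change was 0.51 (SE 0.07, limma adjusted p = 0.000811).

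Atp6v1c2 (chr6:42585934-42630983, minus strand) encodes the C isoform of kidney and lung. It was at 12.7, 10.4, 13.0, 13.2 and 10.5 FPKM in wild type and 19.2, 17.8, 18.4, 19.2 and 18.9 FPKM in Kcnj16_m1. The Kcnj16_m1 libraries were close to each other and all above wild type. Its log2 fold change was 0.63 (SE 0.07, limma adjusted p = 0.00036). Atp6v1g3 (chr13:55274199-55288651, plus strand), the kidney G isoform, was at 40.5, 37.0, 34.3, 37.4 and 33.1 FPKM in wild type and 24.5, 24.7, 20.7, 22.8 and 26.2 FPKM in Kcnj16_m1. All Kcnj16_m1 libraries were below all wild-type ones. The log2 fold change was -0.61 (SE 0.07, limma adjusted p = 0.00041).

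**Figure D3:**
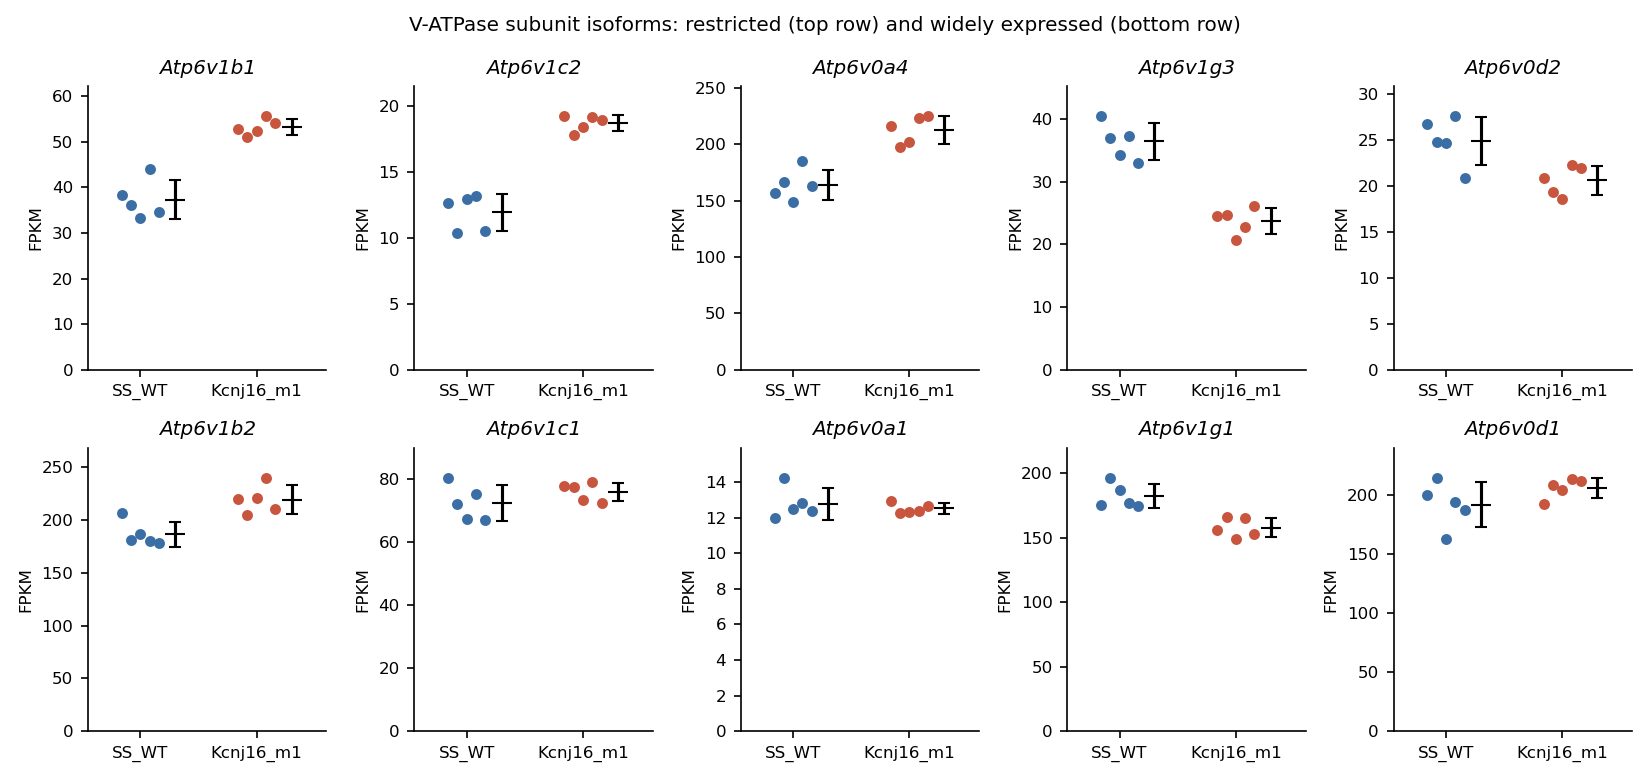
FPKM per library of 5 restricted V-ATPase isoforms (top row) and their widely expressed counterparts (bottom row), with mean ± SD of 5 libraries beside the points. Atp6v1b1, Atp6v1c2 and Atp6v0a4 sit higher in every Kcnj16_m1 library than in any SS_WT library, and Atp6v1g3 sits lower.

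In V0, the a4 isoform rose while most of the sector did not pass. Atp6v0a4 (chr4:65736585-65818521, minus strand) encodes the a4 subunit, which forms part of the proton path and is also mutated in human distal renal tubular acidosis. It was at 157, 167, 149, 185 and 163 FPKM in wild type and 217, 198, 202, 223 and 225 FPKM in Kcnj16_m1. No wild-type library reached the Kcnj16_m1 range. The log2 fold change was 0.38 (SE 0.07, limma adjusted p = 0.00235). Its level was well above that of Atp6v1b1 in every library, and in mouse the a4 protein is known in proximal tubule as well as in intercalated cells, so it is not specific to intercalated cells. The rise in proximal tubule markers given above stood beside that of Atp6v0a4, and its part in the result was not tested. Atp6v0a4 overlaps Tmem213 on the opposite strand, which was at 101 ± 19.6 FPKM (mean ± SD, wild type) against 95.5 ± 7.64 FPKM in Kcnj16_m1 (limma adjusted p = 0.703), and reads of the pair may be mixed.

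The other V0 calls were lower. Atp6v0d2, the d isoform of kidney and osteoclasts (chr5:33843519-33892462, minus strand), was at 26.7, 24.8, 24.7, 27.6 and 20.8 FPKM in wild type and 20.8, 19.3, 18.6, 22.3 and 21.9 FPKM in Kcnj16_m1. Wild-type replicate 5 lay inside the Kcnj16_m1 range. In the fit the log2 fold change was -0.27 (SE 0.08, limma adjusted p = 0.0295), and the call was lost without any 1 of wild-type replicates 1, 2 and 4 or Kcnj16_m1 replicates 1, 2 and 3, with adjusted p from 0.00884 to 0.107 over all alternatives. Atp6v0e2, a small V0 subunit, was at 119, 142, 135, 135 and 131 FPKM in wild type and 113, 112, 118, 124 and 117 FPKM in Kcnj16_m1. Wild-type replicate 1 overlapped the Kcnj16_m1 libraries. Its log2 fold change was -0.18 (SE 0.05, limma adjusted p = 0.0299), and the call was lost without any 1 library other than wild-type replicate 1 and Kcnj16_m1 replicate 4, with adjusted p from 0.00579 to 0.176 over all alternatives.

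The 6 V0 genes that did not pass were Atp6v0c and Atp6v0b of the rotor ring, Atp6v0d1, which couples the ring to the stalk, Atp6v0e1, and the a subunits Atp6v0a1 and Atp6v0a2 of intracellular membranes. Their log2 fold changes ran from -0.03 for Atp6v0a1 to 0.14 for Atp6v0e1. For Atp6v0b and Atp6v0e1 wild-type replicate 1 was the highest wild-type library. Without it their log2 fold changes were 0.22 (limma adjusted p = 0.00712, from 0.00712 to 0.392 over all alternatives) and 0.19 (limma adjusted p = 0.0123, from 0.0121 to 0.19).

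Within a library, the restricted isoform can be set against its counterpart, a ratio that does not depend on scaling between libraries. Atp6v1c2 made up 14.2 ± 1.38% of summed C subunit FPKM in wild type and 19.8 ± 0.729% in Kcnj16_m1 (SD, n = 5 each). Atp6v1b1 made up 16.7 ± 1.77% of the B sum in wild type and 19.6 ± 0.656% in Kcnj16_m1. Atp6v0a4 made up 89.6 ± 0.867% and 91.8 ± 0.323% of the sum of a1, a2 and a4. Thus B1 and C2 were the minor isoforms of their positions and a4 the major one. Atp6v1g3 went the other way, from 16.7 ± 1.38% of the G sum to 13.1 ± 1.02%, as did Atp6v0d2, from 11.6 ± 1.35% of the d sum to 9.09 ± 0.642%.

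In all, 8 log2 ratios were tested with two-sided exact permutation tests of the difference between group means, whose smallest possible p is 0.00794, and adjusted over the 8. The differences of C2 to C1 (0.56), a4 to a1 (0.40), G3 to G1 (-0.40) and d2 to d1 (-0.37) each had the smallest exact p (adjusted 0.0106), and their groups did not overlap. The B1 to B2 ratio was 0.28 higher (exact p = 0.0317, adjusted 0.0317), with wild-type replicate 4 inside the Kcnj16_m1 range, and the adjusted p was 0.0714 without wild-type replicates 1 and 2. The ratio of B1 to a4 was 0.13 higher (exact p = 0.0238, adjusted 0.0272), with overlap, and its adjusted p rose to 0.0556 without Kcnj16_m1 replicate 2, 3 or 4. Summed over isoforms, the G position had means of 219 ± 9.61 FPKM in wild type and 182 ± 8.29 FPKM in Kcnj16_m1 without overlap. The sum of a1, a2 and a4 had means of 183 ± 13.99 and 232 ± 12.6 FPKM. Both sums are described here without a test.

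**Figure D4:**
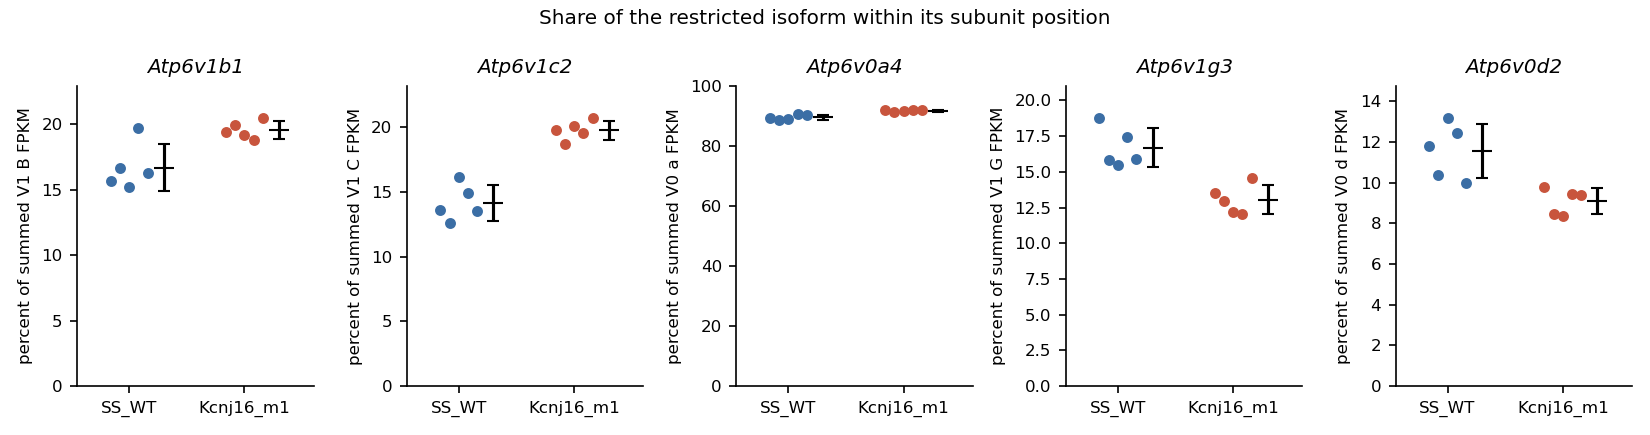
Percent of the summed FPKM of a subunit position made up by its restricted isoform, 1 point per library with mean ± SD of 5 libraries. The a position is the sum of a1, a2 and a4, without a3. The shares of Atp6v1c2 and Atp6v0a4 are higher in every Kcnj16_m1 library, those of Atp6v1g3 and Atp6v0d2 are lower, and wild-type replicate 4 overlaps for Atp6v1b1.

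Of the accessory subunits, Atp6ap2 rose, a membrane protein needed for V-ATPase assembly and also known as the (pro)renin receptor. It was at 89.1, 66.4, 64.2, 80.8 and 70.6 FPKM in wild type and 89.2, 95.2, 87.5, 88.1 and 84.1 FPKM in Kcnj16_m1. Wild-type replicate 1 lay among the Kcnj16_m1 libraries and the others below. On the log2 scale the change was 0.27 (SE 0.09, limma adjusted p = 0.0384), and the call was lost without any 1 of wild-type replicates 2, 3 and 5 or Kcnj16_m1 replicates 1 to 4, with adjusted p from 0.00517 to 0.0882 over all alternatives. Atp6ap1, the other assembly factor of V0, was at 74.7 ± 4.97 FPKM (mean ± SD, wild type) against 70.9 ± 2.06 FPKM in Kcnj16_m1 and did not pass (limma adjusted p = 0.328).

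The main beta subunit of the Na/K-ATPase did not pass. Atp1b1 (chr13:82737159-82758004, minus strand), the beta 1 subunit that brings alpha to the membrane, was at 1112, 1145, 966, 1222 and 963 FPKM in wild type and 1097, 1064, 1209, 1197 and 1067 FPKM in Kcnj16_m1. The groups overlapped widely. On the log2 scale the change was 0.06, 95% interval -0.12 to 0.25 (limma adjusted p = 0.605). Atp1b1 overlaps Nme7 on the opposite strand, which was far lower, at 16.1 ± 3.44 FPKM (mean ± SD, wild type) against 13.5 ± 1.66 FPKM in Kcnj16_m1.

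Atp1b2, a beta subunit best known from brain, was low and rose. It was at 1.82, 2.72, 2.99, 1.93 and 3.003 FPKM in wild type and 4.08, 4.60, 4.26, 4.38 and 3.65 FPKM in Kcnj16_m1. The groups did not overlap, and the log2 fold change was 0.67 (SE 0.13, limma adjusted p = 0.00397). Atp1b3, a beta subunit of many tissues, was at 52.2 ± 3.64 FPKM (mean ± SD, wild type) against 57.4 ± 4.07 FPKM in Kcnj16_m1 and did not pass (limma adjusted p = 0.134).

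**Figure D5:**
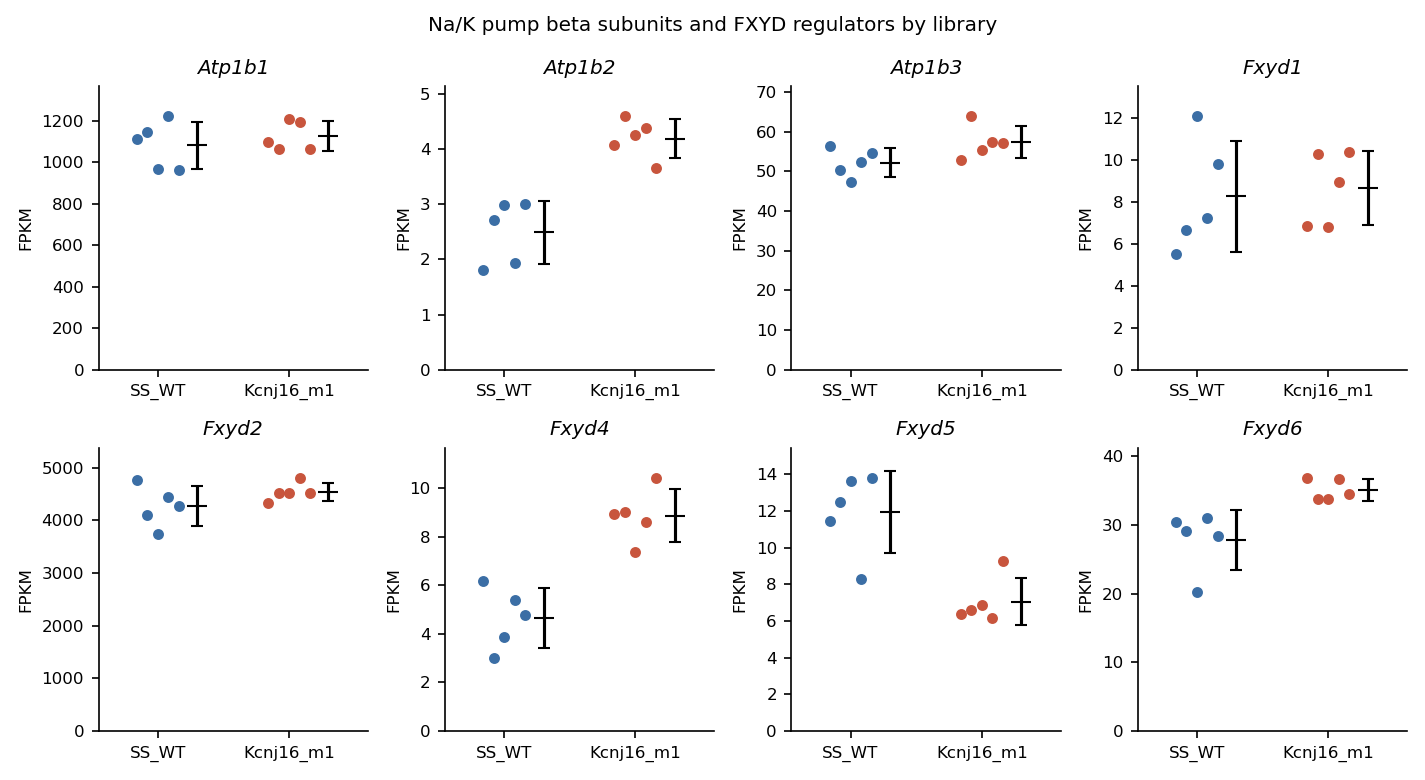
FPKM per library of 3 Na/K-ATPase beta subunits and 5 FXYD genes, with mean ± SD of 5 libraries beside the points. Atp1b2, Fxyd4 and Fxyd6 are higher in every Kcnj16_m1 library than in any SS_WT library, Atp1b1, Atp1b3, Fxyd1 and Fxyd2 overlap, and Fxyd5 is lower with 1 library of each group crossing.

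Of the FXYD genes, Fxyd4 and Fxyd6 rose and Fxyd5 fell. Fxyd2 (chr8:49710477-49716955, plus strand), mutated in a dominant human magnesium-wasting disorder, was at 4772, 4103, 3748, 4434 and 4273 FPKM in wild type and 4327, 4510.2, 4513, 4804 and 4509.8 FPKM in Kcnj16_m1. The groups overlapped, and the change was 0.09 on the log2 scale, 95% interval -0.10 to 0.29 (limma adjusted p = 0.469). Fxyd4 (chr4:149984206-149988295, minus strand), the corticosteroid hormone-induced factor of the collecting duct, was at 6.18, 3.01, 3.87, 5.39 and 4.76 FPKM in wild type and 8.93, 8.99, 7.36, 8.61 and 10.4 FPKM in Kcnj16_m1. Every Kcnj16_m1 library was above every wild-type one. Its log2 fold change of 0.89 (SE 0.16, limma adjusted p = 0.00271) was the largest increase among the 31 pump genes tested. The log2 ratio of Fxyd4 to Fxyd2 was 0.80 higher (exact p = 0.00794, adjusted 0.0106). Of 10 principal cell markers, a list that holds Fxyd4 itself, 7 rose and none fell, or 70.0%, against 28.5% of all genes tested. Their sum was 197 to 293 FPKM among wild-type libraries and 279 to 371 FPKM among Kcnj16_m1 libraries. Their part in the result was not tested.

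Fxyd6, a regulator first described in brain, was at 30.4, 29.2, 20.2, 31.1 and 28.4 FPKM in wild type and 36.9, 33.8, 33.7, 36.7 and 34.5 FPKM in Kcnj16_m1. All Kcnj16_m1 libraries were above wild type, where replicate 3 was low. In the fit the log2 fold change was 0.34 (SE 0.10, limma adjusted p = 0.0297), and the call was lost without wild-type replicate 5 or Kcnj16_m1 replicate 1, 4 or 5, with adjusted p from 0.0077 to 0.0655 over all alternatives. Fxyd5, also called dysadherin, a regulator that lowers cell adhesion, was at 11.4, 12.5, 13.6, 8.30 and 13.8 FPKM in wild type and 6.39, 6.60, 6.88, 6.16 and 9.26 FPKM in Kcnj16_m1. Wild-type replicate 4 lay below Kcnj16_m1 replicate 5, and otherwise wild type was higher. Its log2 fold change was -0.71 (SE 0.14, limma adjusted p = 0.00489). Macrophage markers moved with it, 13 of 15 falling (86.7%, against 14% lower of all genes tested) and none rising. Macrophage sums were 1117 to 1583 FPKM in wild type and 855 to 1027 FPKM in Kcnj16_m1. Cd74 was the highest gene of that list (means of 821 and 623 FPKM), so the sums mostly follow it. Csf1r and Adgre1 did not pass (limma adjusted p = 0.138 and 0.401). Injury markers moved with Fxyd5 too, 8 of 11 tested falling (72.7%) and none rising. Wild-type replicate 4, the lowest for Fxyd5, also had the lowest wild-type injury sum at 593 FPKM. The order did not hold elsewhere. The highest injury sum, 3097 FPKM, was in replicate 3, while Fxyd5 was highest in replicate 5. The lowest wild-type macrophage sum was in replicate 1. Spp1 was the highest injury gene (390 to 2714 FPKM in wild type), so the injury sum mostly follows it. The part of these markers in the result was not tested. Fxyd1, phospholemman of heart and muscle, was at 8.25 ± 2.64 FPKM (mean ± SD, wild type) against 8.64 ± 1.76 FPKM in Kcnj16_m1 and did not pass (limma adjusted p = 0.768).

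The H/K-ATPases were near the limit of detection in cortex. Atp12a, the colonic alpha subunit that the collecting duct can use, was at 0.135, 0.0813, 1.20, 0.160 and 0.313 FPKM in wild type and 0.420, 0.225, 0.0697, 0.218 and 0.243 FPKM in Kcnj16_m1. Wild-type replicate 3 alone was above 0.5 FPKM, with 97 reads. Atp4a, the gastric alpha subunit, was at 0.139, 0.104, 0.0791, 0.102 and 0.0501 FPKM in wild type and 0.1001, 0.0509, 0.0745, 0.237 and 0.156 FPKM in Kcnj16_m1, with wide overlap. Atp4b, the gastric beta subunit, had 1 read in 1 Kcnj16_m1 library and 0 in the others. With no filter on low values, limma called none of the 3, with adjusted p of 0.758 for Atp12a, 0.644 for Atp4a and 0.688 for Atp4b.

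The other 9 genes below the filter included Atp1a4, Atp1b4, Atp6v1e2, Atp6v1g2, Atp6ap1l, Fxyd3 and Fxyd7, most of them isoforms known from muscle, nerve, testis or other epithelia. Among them Atp1a4, the alpha isoform of sperm, was at 0.941, 0.472, 0.494, 0.704 and 0.790 FPKM in wild type and 0.214, 0.325, 0.225, 0.309 and 0.244 FPKM in Kcnj16_m1. Atp6v1g2, the neuronal G isoform, was at 0.269, 0.269, 0.327, 0.0882 and 0.288 FPKM in wild type and 0.690, 0.702, 0.590, 0.433 and 0.686 FPKM in Kcnj16_m1. Neither overlapped between the groups, and both were named after their values were seen. With no filter on low values limma called both, Atp1a4 lower (log2 fold change -0.61, adjusted p = 0.00651) and Atp6v1g2 higher (0.59, adjusted p = 0.00643). Atp6v1g2 shares its position with several genes, among them Nfkbil1 on the opposite strand, so its reads may be theirs.

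Genes that work beside the pumps were counted in the same fit. Of 21 tested genes on a list for intercalated cells other than pumps, 8 rose and 1 fell, with a median log2 fold change of 0.18. Not all genes on the list are restricted to these cells, Slc4a4 and Adgrf5 among them. The share called was 42.9%, against 28.5% of all genes tested. Slc4a1, the basolateral chloride-bicarbonate exchanger of acid-secreting cells, rose from 27.9 ± 5.12 to 48.8 ± 3.13 FPKM (log2 fold change 0.81, limma adjusted p = 0.000811), and Rhcg, an ammonia channel, from 48.2 ± 7.89 to 69.8 ± 2.88 FPKM (0.55, limma adjusted p = 0.00274). Slc4a9, a basolateral transporter of bicarbonate-secreting cells, rose from 17.1 ± 3.34 to 27.0 ± 1.64 FPKM (0.66, limma adjusted p = 0.00223). Slc26a4, pendrin, the apical exchanger of bicarbonate-secreting cells, fell from 20.2 ± 3.75 to 9.88 ± 0.769 FPKM (-0.98, limma adjusted p = 0.000317). The summed level of the list was 1084 to 1292 FPKM in wild type and 1222 to 1320 FPKM in Kcnj16_m1. Its highest genes were Car12 (means of 375 and 373 FPKM), Car2 (307 and 340 FPKM) and Slc4a4 (148 and 172 FPKM), which did not pass. The sum therefore mostly follows genes other than those named above. The part of the list in the rise of Atp6v1b1 and Atp6v1c2 and the fall of Atp6v1g3 was not tested.

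Of 23 genes of V-ATPase assembly and regulation, 6 rose and 3 fell, with a median of 0.10. That is 39.1% called, against 28.5% of all genes tested. Rilp, a late endosome adaptor, rose by 0.44 on the log2 scale (limma adjusted p = 0.00349) and Rogdi, a subunit of the V1 assembly complex, by 0.33 (limma adjusted p = 0.00495). Rnasek, a small V0-associated protein, fell by 0.90 (limma adjusted p = 0.0102), though it overlaps RGD1308134 on the same strand. Sodium entry paths that work with the Na/K-ATPase had 13 of 23 higher and 0 lower, with a median of 0.40. Here 56.5% were called, against the same 28.5%. Slc5a1, a sodium-glucose cotransporter, rose from 7.69 ± 0.615 to 11.7 ± 1.88 FPKM (0.56, limma adjusted p = 0.00385), and Scnn1b, a subunit of the epithelial sodium channel, from 11.5 ± 1.07 to 14.7 ± 0.915 FPKM (0.34, limma adjusted p = 0.00501), though it overlaps Cog7 on the opposite strand.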

How the data were processed

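The authors deposited 1 table of FPKM values for 32545 genes and 10 libraries, with gene symbols, positions and lengths, and 0 per-sample columns were left unused. The submitters' processing notes name featureCounts 1.5.0-p3, StringTie 1.3.3b, HISAT2 2.0.5 and fastp, with no roles. No genome build is named in the sources used here. FPKM times gene length gave whole reads, within a tolerance of 0.05, for 100% of the values, which set the depth at 16361516 to 23385968 reads per library. Genotypes, 5 libraries each, were compared in R 4.3.3 by limma 3.58.1, fitted to log2(FPKM + 0.5) of the 13971 genes that reached 0.5 FPKM in 5 or more libraries, with a trended prior and Benjamini-Hochberg adjustment. A set of 8 isoform log2 ratios was compared by exact permutation. The fit was also run on simulated data, whose outcome is not given here.

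The members, the 13 partner and marker lists (192 of 198 entries matched) and the tests were chosen with earlier results of these data known. Values per library are given for members past the threshold and for Atp6v1b1, Atp6v0a4, Atp6v1c2, Atp6v1g3, Atp6v0d2, Atp1b1, Fxyd2, Fxyd4, Atp12a and Atp4a, and of each list used up to 4 genes with the smallest adjusted p could be named. Some genes that the rule covers are counted but not reported here. In all, 21 alternatives were run: pseudocounts, filters, normalizations, variance models, voom on the recovered reads, libraries left out, and removal of the length trend, which was chosen after seeing the data. Promoters are RefSeq's, GRCr8. The FPKM divisor was 0.980 to 1.09 times the recovered read sum.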

Additional observations from a re-analysis of the deposited data

Results flagged for a closer look

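In 85 sets of 5 libraries (a pump gene in 1 genotype), the gap of the highest or lowest library to its nearest neighbour was compared with the whole range, with a critical ratio of 0.71, and 6 sets were past it. Chance gives about 1 in 20. Fxyd5 was highest in Kcnj16_m1 replicate 5, at 9.263 FPKM against at most 6.882 FPKM in the other Kcnj16_m1 libraries. Fxyd6 was lowest in wild-type replicate 3, at 20.21 FPKM with the next library at 28.44 FPKM. Atp12a was highest in the same wild-type library, at 1.198 FPKM with the next at 0.3126 FPKM. Atp6v1g2 was lowest in wild-type replicate 4, at 0.08819 FPKM with the next at 0.2686 FPKM. Fxyd3 was above 0 in wild-type replicate 4 alone among wild-type libraries, at 0.131 FPKM, and Atp4b was above 0 in Kcnj16_m1 replicate 2 alone, at 0.03969 FPKM, which is 1 read.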

How the results depend on the processing

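Across 21 alternatives, 7 pump genes were higher in every one (Atp6v1a, Atp6v1b1, Atp6v1b2, Atp6v1c2, Atp6v0a4, Atp1b2 and Fxyd4) and 4 lower (Atp6v1d, Atp6v1g1, Atp6v1g3 and Fxyd5), and no result that was called reversed. Leaving out 1 library at a time, 7 to 12 pump genes were higher and 4 to 6 lower. It was 4 lower without wild-type replicate 2 or 4 or Kcnj16_m1 replicate 1, 2 or 3. The B1 to a4 log2 ratio then ranged from 0.11 to 0.16 and missed the threshold without Kcnj16_m1 replicate 2, 3 or 4. The B1 to B2 ratio was 0.25 (exact permutation, adjusted p = 0.0714) with wild-type replicates 1 and 2, the lowest numbers in the labels, left out, where fewer samples remain. The cause of the other changes was not tested. No paired analysis was possible because the labels give no replicate numbers. The 12 genes below the filter had at most 97 reads in a library, and with no filter 2 of them were called, Atp6v1g2 higher and Atp1a4 lower.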

Other observations

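Lysosome genes, whose compartment the V-ATPase acidifies, were counted beside the pumps. Of 29 tested, 3 rose and 7 fell, with a median log2 fold change of -0.07. The share called, 34.5%, was close to the 28.5% of all genes tested. Ctsl, a lysosomal cysteine protease, fell from 1707 ± 181 to 995 ± 97.9 FPKM (limma adjusted p = 0.000459), and Npc2, a lysosomal cholesterol carrier, from 106 ± 4.15 to 86.4 ± 6.15 FPKM (limma adjusted p = 0.00337). Macrophage markers moved with them, 13 of 15 falling (86.7%, against 14% lower of all genes tested). Their part in the result was not tested.

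Nkain1, which encodes a protein that interacts with the Na/K-ATPase beta subunit, fell from 5.95 ± 1.74 to 2.80 ± 0.381 FPKM (log2 fold change -0.92, limma adjusted p = 0.00489) and was named after its values were seen. Wild-type replicate 5, at 3.30 FPKM, lay below the highest Kcnj16_m1 library, at 3.41 FPKM.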
